A study of Drosophila melanogaster with 4 samples.

Results

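The glutathione S-transferases (GSTs) of Drosophila melanogaster were followed here in whole larvae of the third instar that overexpressed either Gyc76C or GFP. All 36 probe sets whose only annotated gene symbol starts with Gst were taken, out of 18769 probe sets that are not array controls, and they stand for 34 genes. The class letter in the symbol sorts them into 11 delta (D), 14 epsilon (E), 4 omega (O), 1 sigma (S), 4 theta (T) and 2 zeta (Z) probe sets. GstE9 and GstO2 have 2 probe sets each. No Gst symbol shared a probe set with another gene, and GstE8 was not analysed here. The genes were matched by Entrez number to the RefSeq gene table of assembly Release 6, where all 34 carry the same symbol.

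The experimental larvae were C564-Gal4; UAS-Gyc76C and the control larvae C564-Gal4; UAS-GFP, both raised at 25 °C, and RNA came from the whole body. Both genotypes therefore carry the driver C564-Gal4, and as named they differ in the transgene it switches on. Whether their genetic backgrounds were otherwise the same was not tested. Gyc76C is a transmembrane receptor guanylate cyclase, which makes cGMP, and the labels place its overexpression in fat body, where larvae store nutrients, detoxify compounds and make immune peptides. C564-Gal4 is known to be active in other tissues as well, blood cells among them. Each genotype had 2 arrays, called biological replicas. Because RNA came from whole larvae, fewer cells of a tissue and less RNA per cell cannot be told apart in any value below.

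GSTs are enzymes that join the tripeptide glutathione to electrophilic compounds, such as plant toxins, insecticides and products of lipid peroxidation, so that these can be pumped out of the cell. In insects the delta and epsilon classes have expanded by tandem duplication and carry much of the response to xenobiotics, whereas the omega, sigma, theta and zeta classes have relatives in many animals. Several fly GST genes are induced through the transcription factor CncC, which the protein Keap1 holds in check, and GstD1 is widely used as a reporter of that response. The fat body, midgut and Malpighian tubules are the main detoxifying tissues of the larva.

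The arrays had been scaled by the authors to a 2% trimmed mean signal of 500.02 each. Arrays of 1 genotype correlated at r = 0.968 (Gyc76C) and 0.966 (GFP) over 11261 tested probe sets, and arrays of different genotype at 0.88 to 0.91. The median log2 fold change over all tested probe sets was -0.16, so small changes have to be read against that shift. The number of arrays limits the precision, with a median standard error (SE) of a log2 fold change of 0.21. The brightest probe set annotated to Gyc76C, together with CG42637, had signals of 16050 and 20993 in Gyc76C larvae and 1047 and 928 in GFP larvae, 18.6-fold higher (limma adjusted p = 5.79e-05). The position of that probe set within the transgene was not analysed here.

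Setting Gyc76C against GFP larvae asks which GST transcripts differ with overexpression of the cyclase. The family did not move one way: delta genes that lie side by side changed in opposite directions, GstE6, GstE9, GstE10 and GstO2 were 2.04-fold to 3.13-fold higher in Gyc76C larvae by their brightest probe sets, and GstD5 was 5.27-fold lower. Of the 33 Gst probe sets tested, which had a mean signal of at least 46.3 over the 4 arrays, 10 rose and 6 fell at an adjusted p under 0.05, and 17 did not pass (limma, Benjamini-Hochberg adjustment over all 11261 probe sets). That is 48.5% called, against 24.6% of all tested probe sets, where 11.3% were higher and 13.3% lower. Among probe sets above the 60th percentile of signal the background was 35.9%, against 17 of 31 Gst probe sets (54.8%). Log2 changes below are log2 fold changes of Gyc76C over GFP larvae. At least 2-fold changes among the calls numbered 5 higher and 4 lower, against 5.51% and 6.69% of all probe sets tested. The median log2 fold change of the tested Gst probe sets was -0.06, and the median of its absolute size was 0.74, against 0.45 for all tested probe sets.

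Other scalings gave similar counts, with 11 higher and 5 lower after centring each array on its median and 10 higher and 7 lower after quantile normalization. Over the tested Gst probe sets the Gyc76C arrays both exceeded the GFP arrays in 13 and both lay under them in 12, against 26.9% and 41.4% of all tested probe sets; together these are 25 of 33, against 68.3%. The number of calls did depend on the replicates and on the variance model. Without Gyc76C replicate 1 there were 5 higher and 4 lower (background 10.7%), and 5 higher and 3 lower with no mean trend in the prior variance (background 11%), where the calls of GstD2, GstD3, GstD6, GstD7, GstD10, GstE10, GstO1 and GstZ1 ended. The probe sets called under the reported setting and under all 14 alternatives were 7, those of GstD4, GstD5, GstD8, GstE6, GstE9, GstT3 and the brighter one of GstO2.

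**Figure D1:**
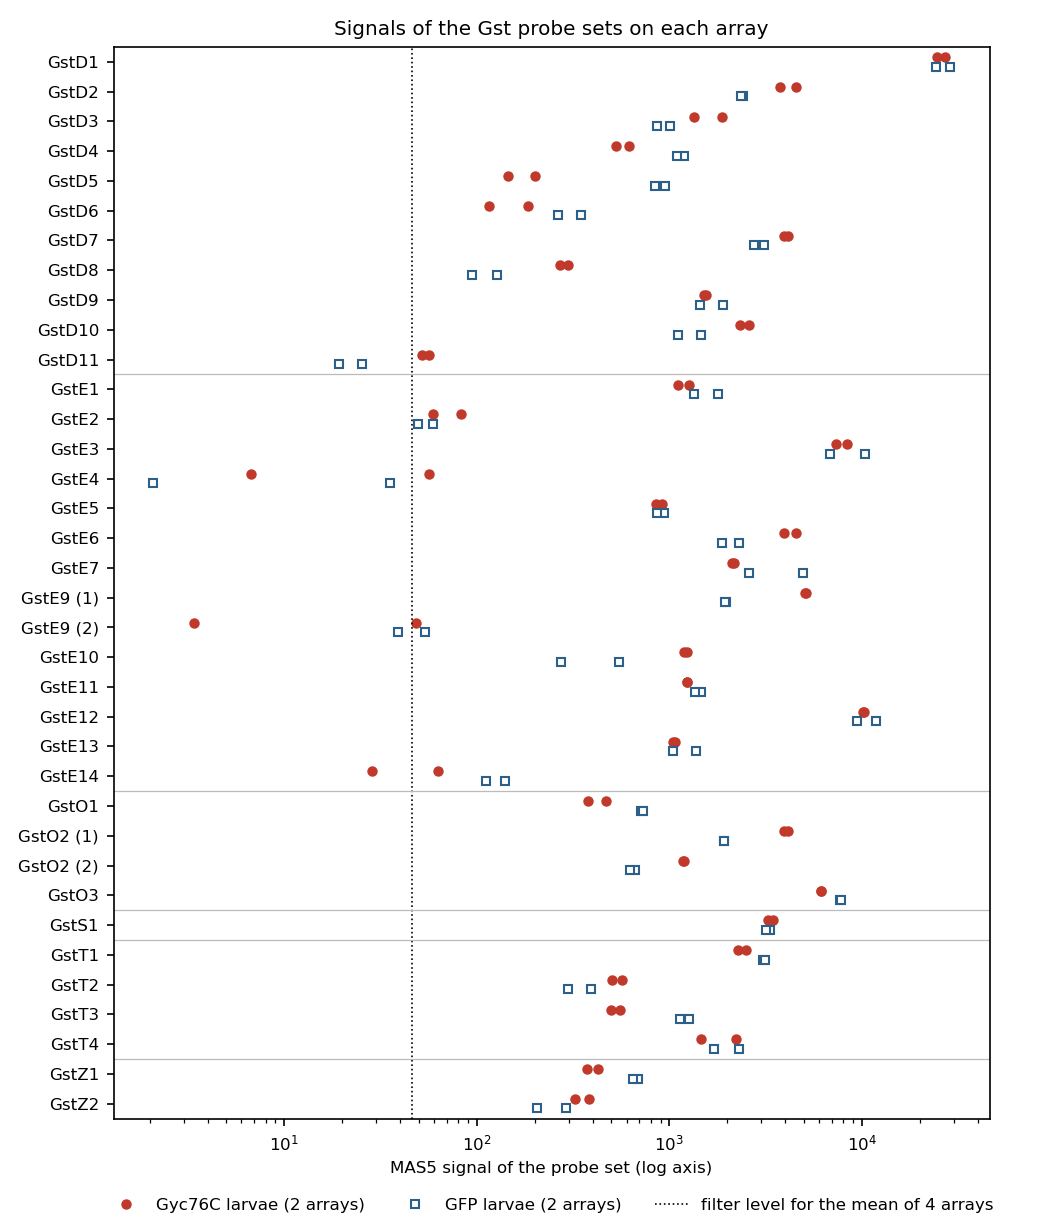
MAS5 signal (log axis) of each of the 36 Gst probe sets on the 2 Gyc76C arrays (filled red circles) and the 2 GFP arrays (open blue squares), grouped by class, with the filter level of 46.3 dotted. The genotypes separate in both directions within every class but sigma, whose single probe set overlaps. GstD11, GstE4 and the second probe set of GstE9 lie around or below the filter level. Signals of different probe sets are not comparable as transcript levels.

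In the delta class 5 of 10 tested probe sets rose and 3 fell, against 11.3% and 13.3% of all tested probe sets. The median log2 fold change of the class was 0.21. Without Gyc76C replicate 1, 1 delta probe set rose, that of GstD8. All 11 measured delta genes lie in 1 cluster on chromosome arm 3R, and in the order of the RefSeq table they run GstD10, GstD9, GstD1, GstD2, GstD3, GstD4, GstD5, GstD6, GstD7, GstD8 and GstD11. Going along this order, GstD10 rose, GstD9 and GstD1 were not called, GstD2 and GstD3 rose, GstD4, GstD5 and GstD6 fell, and GstD7 and GstD8 rose. Of 6 adjacent pairs in which both genes were called, 2 had opposite directions, at the borders of the block of genes that fell.

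The block that fell was led by GstD5. GstD5 had signals of 200 and 145 in Gyc76C larvae, against 848 and 946 in GFP larvae. Both Gyc76C arrays lay far below both GFP arrays, and the log2 fold change was -2.40 (SE 0.21, adjusted p = 0.000889), which is 5.27-fold lower. GstD4, its neighbour on one side, had 621 and 526 in Gyc76C larvae and 1198 and 1099 in GFP larvae, 2.01-fold lower (log2 change -1.01, SE 0.15, adjusted p = 0.00592). GstD6, on the other side, had 116 and 184 in Gyc76C larvae and 350 and 264 in GFP larvae, 2.08-fold lower (log2 change -1.06, SE 0.29, adjusted p = 0.040). The arrays did not overlap for either gene, but the GstD6 call was lost with centred arrays (adjusted p = 0.0643), after quantile normalization (0.0696) and on leaving out Gyc76C replicate 1 (0.17) or GFP replicate 1 (0.105).

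The delta genes on both sides of that block rose. GstD2, a GST of the delta class, had 4548 and 3736 in Gyc76C larvae and 2400 and 2355 in GFP larvae, 1.73-fold higher (log2 change 0.79, SE 0.14, adjusted p = 0.0107). GstD3, next to it, had 1871 and 1340 in Gyc76C larvae and 1004 and 860 in GFP larvae, 1.70-fold higher (adjusted p = 0.0313). GstD7 rose less, with 4128 and 3941 in Gyc76C larvae and 2753 and 3114 in GFP larvae, 1.38-fold higher (adjusted p = 0.0454). For all of these the Gyc76C arrays lay above the GFP arrays. Without Gyc76C replicate 1 the calls of GstD2 (adjusted p = 0.101), GstD3 (0.226) and GstD7 (0.265) ended. The GstD7 call ended also without Gyc76C replicate 2 (0.16), without GFP replicate 1 (0.0623) and after quantile normalization (0.0557).

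GstD8 and GstD10, towards the ends of the cluster, rose more. GstD8 had 296 and 272 in Gyc76C larvae and 128 and 94.2 in GFP larvae, 2.59-fold higher (log2 change 1.37, SE 0.24, adjusted p = 0.0101). GstD10 had 2584 and 2327 in Gyc76C larvae and 1469 and 1105 in GFP larvae, 1.92-fold higher (log2 change 0.94, SE 0.17, adjusted p = 0.0109), a call that ended without Gyc76C replicate 1 (adjusted p = 0.0727). GstD11 was too dim to be tested, with 56.3 and 51.6 in Gyc76C larvae and 25.3 and 19.2 in GFP larvae. Both of its Gyc76C signals lay above the filter level and both GFP signals below it.

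GstD1 is the delta GST used as a stress reporter, and its enzyme is known to break down DDT in the test tube. Its signals were 24651 and 26903 in Gyc76C larvae and 28611 and 24311 in GFP larvae, so the genotypes overlapped. The log2 fold change was -0.03 (SE 0.15, adjusted p = 0.891), with a 95% interval of -0.40 to 0.34, and its sign turned with centred arrays. GstD9, between GstD10 and GstD1, overlapped too, with 1511 and 1558 in Gyc76C larvae and 1905 and 1447 in GFP larvae (log2 change -0.11, 95% interval -0.51 to 0.28, adjusted p = 0.642), and turned sign with centred arrays as well.

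Ratios of neighbouring genes on the same array are unaffected by a single scaling factor per array, such as median centring. The log2 ratio of GstD4 to GstD3 was -1.59 and -1.35 in Gyc76C larvae and 0.25 and 0.35 in GFP larvae, a difference of -1.77. The log2 ratio of GstD6 to GstD7 was -5.15 and -4.42 in Gyc76C larvae and -2.98 and -3.56 in GFP larvae, a difference of -1.52. In both pairs the Gyc76C arrays lay below the GFP arrays. These pairs were picked after their values were seen, so the ratios were given no test. Delta paralogs have similar sequences, and how far their probes share targets was not tested.

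**Figure D2:**
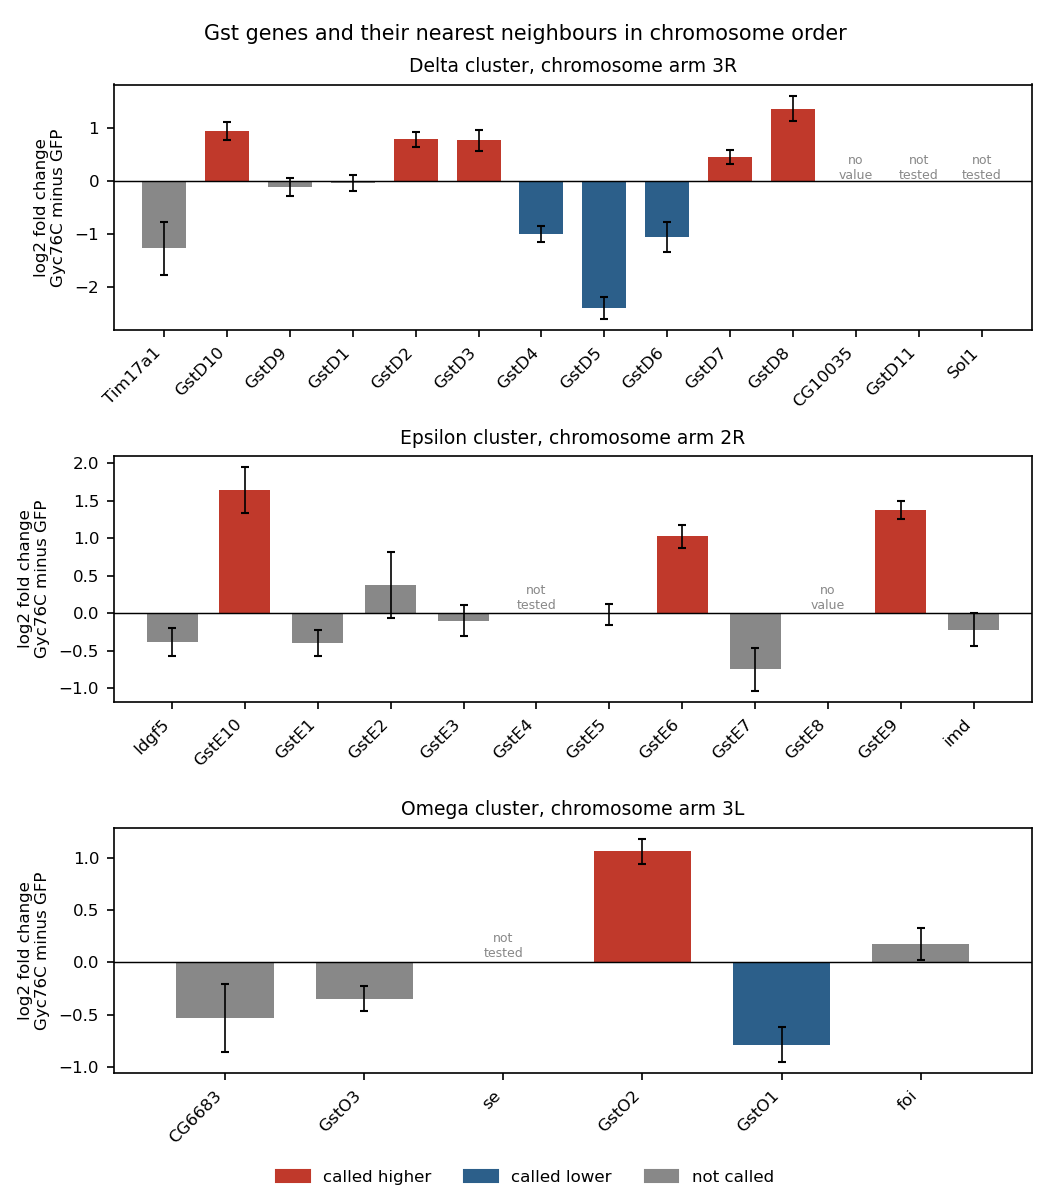
log2 fold change (Gyc76C minus GFP) of the Gst genes and the nearest protein-coding neighbours, in chromosome order, for the delta, epsilon and omega clusters. Bars start at 0, whiskers are SE, red and blue mark genes called higher and lower at an adjusted p under 0.05, and grey marks genes not called. GstD4, GstD5 and GstD6 fell between delta genes that rose, and GstO2 and GstO1 changed in opposite directions. GstD1 and GstE5 have bars too short to see.

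The nearest protein-coding genes around the delta cluster were named by position. CG4115, next to Tim17a1 on the side away from GstD10, had 1690 and 1746 in Gyc76C larvae and 790.4 and 790.3 in GFP larvae, 2.17-fold higher (adjusted p = 0.00231). Tim17a1, which encodes a mitochondrial import protein and precedes GstD10, had 26.6 and 46.6 in Gyc76C larvae and 90.3 and 80.1 in GFP larvae. It was not called (limma adjusted p = 0.112), and with a mean of 36.6 in Gyc76C larvae it passed the signal filter only through the GFP arrays. CG10035, between GstD8 and GstD11, was not analysed here. Beyond GstD11, Sol1 was too dim to be tested and CG33098 was not called (log2 change -0.01, limma adjusted p = 0.99).

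In the epsilon class 3 of 12 tested probe sets rose and 0 fell, so 25% were called, close to the background of 24.6%. At an unadjusted p under 0.05, limma had 2 more epsilon probe sets, GstE7 and GstE14, and both had lower signals in Gyc76C larvae. The median log2 fold change was -0.08. The 3 that rose, however, did so at least 2-fold. GstE10 had 1237 and 1186 in Gyc76C larvae and 545 and 275 in GFP larvae, 3.13-fold higher (log2 change 1.65, SE 0.30, adjusted p = 0.0115). The GFP arrays differed from each other, yet both lay below the Gyc76C arrays, with a log2 change of 1.15 on leaving out GFP replicate 2 and of 2.14 on leaving out GFP replicate 1. The call held in both and ended with no mean trend in the prior variance (adjusted p = 0.0637), where 2 epsilon probe sets rose.

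GstE9 and GstE6 had tighter replicates. By its brighter probe set GstE9 had 5130 and 5064 in Gyc76C larvae and 1977 and 1955 in GFP larvae, 2.59-fold higher (log2 change 1.37, SE 0.12, adjusted p = 0.000977). The second probe set of GstE9 was dim and overlapped, with 3.41 and 48.3 in Gyc76C larvae and 53.8 and 39.2 in GFP larvae, and was not tested. GstE6 had 4559 and 3947 in Gyc76C larvae and 2304 and 1880 in GFP larvae, 2.04-fold higher (log2 change 1.03, SE 0.16, adjusted p = 0.00592). GstE6, GstE9 and GstE10 are epsilon GSTs of the tandem cluster on chromosome arm 2R, where GstE10 and GstE9 are the first and last Gst genes in the order of the table.

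The other tested genes of that cluster, GstE1, GstE2, GstE3, GstE5 and GstE7, were not called. GstE1, whose enzyme conjugates the lipid peroxidation product 4-hydroxynonenal, had 1267 and 1103 in Gyc76C larvae and 1797 and 1351 in GFP larvae. Its log2 fold change was -0.40 (95% interval -0.82 to 0.03, adjusted p = 0.146), and -0.60 with an adjusted p of 0.0179 without GFP replicate 2. GstE7 had 2115 and 2157 in Gyc76C larvae and 4969 and 2596 in GFP larvae (log2 change -0.75, adjusted p = 0.0998). Both Gyc76C arrays lay below both GFP arrays, and GstE7 was called without GFP replicate 2 (log2 change -1.22, adjusted p = 0.00039), where 2 epsilon probe sets fell.

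Among the genes of that cluster, GstE2, GstE3 and GstE5 had adjusted p of 0.557, 0.761 and 0.938, and their log2 fold changes were 0.38, -0.10 and -0.02. GstE3 had 8394 and 7362 in Gyc76C larvae and 10348 and 6850 in GFP larvae, so the GFP arrays enclosed the Gyc76C arrays. GstE4 scattered from 2.09 to 56.2 over the 4 arrays and was not tested.

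The remaining epsilon genes lie outside the tandem array. GstE14, also known as Noppera-bo, is required for making ecdysteroids in the prothoracic gland. It had 63.2 and 28.5 in Gyc76C larvae and 140 and 111 in GFP larvae, so the genotypes did not overlap, but it narrowly failed the test (log2 change -1.56, SE 0.49, adjusted p = 0.0608). The mean signal of GstE14 in Gyc76C larvae was 45.8, so it passed the signal filter only through the GFP arrays. It was called without Gyc76C replicate 1 (log2 change -2.13, adjusted p = 0.0246), where it was the 1 epsilon probe set that fell. GstE11, GstE12 and GstE13 had log2 fold changes of -0.19, -0.06 and -0.19 and adjusted p of 0.315, 0.822 and 0.43. The 95% interval of GstE12, which had 10089 and 10200 in Gyc76C larvae and 11819 and 9401 in GFP larvae, ran from -0.43 to 0.31.

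**Figure D3:**
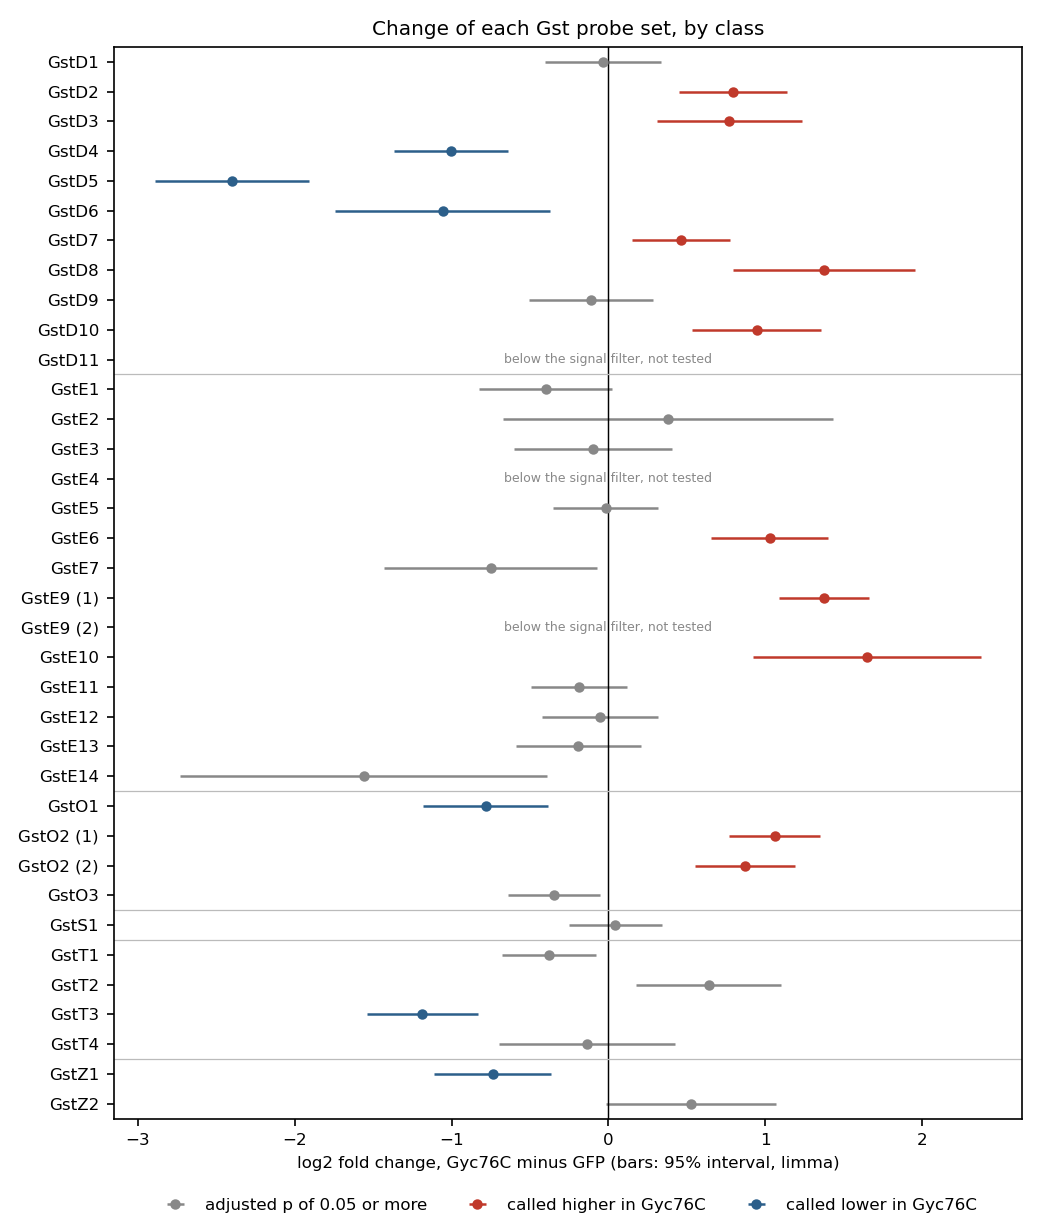
log2 fold change (Gyc76C minus GFP) of each tested Gst probe set with its 95% interval from limma, unadjusted for the number of tests, by class. Red and blue mark calls at an adjusted p under 0.05 and grey marks probe sets not called. GstE10 at 1.65 and GstD5 at -2.40 are the extremes, and the intervals of GstD1, GstE5, GstE12 and GstS1 include 0.

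Omega GSTs carry a cysteine in the active site and work mainly as glutathione-dependent reductases, for example of dehydroascorbate. Both GstO2 probe sets rose. The brighter one had 4110 and 3918 in Gyc76C larvae and 1923 and 1933 in GFP larvae, 2.08-fold higher (log2 change 1.06, SE 0.12, adjusted p = 0.00239). The other one had 1175 and 1187 in Gyc76C larvae and 666 and 628 in GFP larvae, 1.83-fold higher (log2 change 0.87, adjusted p = 0.00628), and its call ended without Gyc76C replicate 1 (adjusted p = 0.0603).

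GstO1, the next gene on chromosome arm 3L, fell. It had 378 and 468 in Gyc76C larvae and 715 and 733 in GFP larvae, 1.72-fold lower (log2 change -0.78, SE 0.17, adjusted p = 0.0183). That call ended without Gyc76C replicate 1 (adjusted p = 0.157). Within arrays the log2 ratio of GstO1 to the brighter GstO2 probe set was -3.44 and -3.06 in Gyc76C larvae and -1.43 and -1.40 in GFP larvae, a difference of -1.84. GstO3 had 6111 and 6109 in Gyc76C larvae and 7678 and 7835 in GFP larvae, a log2 fold change of -0.34 that did not pass (SE 0.12, adjusted p = 0.0857) and that passed after quantile normalization (-0.45, adjusted p = 0.0184). The sepia gene se, an omega GST needed for red eye pigment, lies between GstO3 and GstO2 and was dim at 3.92 and 8.57 in Gyc76C larvae and 6.09 and 16.4 in GFP larvae.

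Theta and zeta genes added 2 calls, both lower. Called were 1 of 4 theta and 1 of 2 zeta probe sets tested, against 24.6% of all tested probe sets. Theta GSTs are an old class whose mammalian members act on small halogenated compounds. GstT3, on the X chromosome, had 497 and 557 in Gyc76C larvae and 1265 and 1134 in GFP larvae, 2.28-fold lower (log2 change -1.19, SE 0.15, adjusted p = 0.00305). GstT4, also on the X chromosome, overlapped between the genotypes, with 1461 and 2217 in Gyc76C larvae and 2287 and 1716 in GFP larvae (log2 change -0.14, adjusted p = 0.694).

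GstT1 and GstT2 are neighbours on chromosome arm 2R. GstT1 had 2282 and 2493 in Gyc76C larvae and 3054 and 3155 in GFP larvae (log2 change -0.38, adjusted p = 0.0703). GstT2 had 571 and 502 in Gyc76C larvae and 299 and 394 in GFP larvae (log2 change 0.64, SE 0.19, adjusted p = 0.0541). The arrays of the genotypes did not overlap in either gene, and neither passed the test. GstT2 was called higher with centred arrays (log2 change 0.80, adjusted p = 0.0247), after quantile normalization (0.78, adjusted p = 0.0341) and on leaving out GFP replicate 2 (0.84, adjusted p = 0.0128), and GstT1 lower after quantile normalization (-0.44, adjusted p = 0.0432).

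Zeta GSTs act as maleylacetoacetate isomerases in the breakdown of tyrosine and phenylalanine. GstZ1 had 427 and 372 in Gyc76C larvae and 685 and 646 in GFP larvae, 1.67-fold lower (log2 change -0.74, SE 0.16, adjusted p = 0.0182). That call was lost on leaving out Gyc76C replicate 1 (adjusted p = 0.0751) or Gyc76C replicate 2 (0.122). GstZ2, the adjacent gene, had 323 and 384 in Gyc76C larvae and 206 and 289 in GFP larvae, a log2 change of 0.53 that did not pass (adjusted p = 0.134; it was 0.0401 on leaving out GFP replicate 2). The within-array log2 ratio of GstZ1 to GstZ2 was 0.40 and -0.04 in Gyc76C larvae and 1.73 and 1.16 in GFP larvae.

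GstS1 is the single sigma GST of the fly, abundant in muscle. Its probe set, of a kind (suffix _s_at) that can match more than one transcript, had 3267 and 3440 in Gyc76C larvae and 3339 and 3174 in GFP larvae. The genotypes overlapped (log2 change 0.04, adjusted p = 0.827), and the 95% interval of -0.25 to 0.34 excluded a 2-fold change either way.

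**Figure D4:**
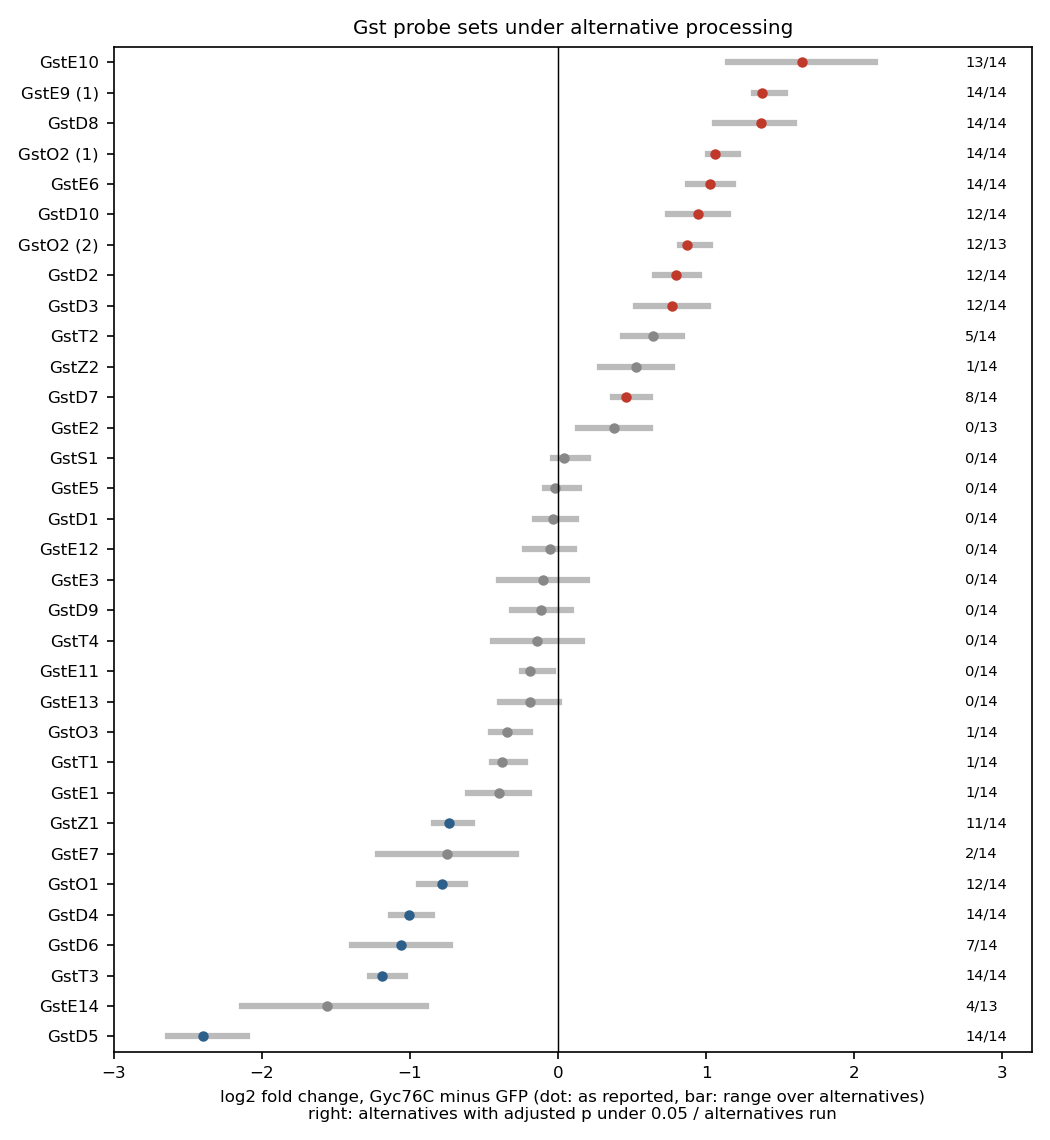
log2 fold change of each tested Gst probe set as reported (dot, red for called higher, blue for called lower, grey for not called) and its range over the alternatives run (grey bar), sorted by size, with the number of alternatives under an adjusted p of 0.05 on the right. GstD5 and GstE9 were called in 14 of 14, GstD6 in 7 and GstD7 in 8.

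Genes that make glutathione and handle its conjugates were counted next, each by its brightest probe set. The only call among 5 measured genes of glutathione synthesis and breakdown was Cbs, against 24.6% of all tested probe sets called. Cbs, cystathionine beta-synthase, feeds cysteine into glutathione. It had 1292 and 1164 in Gyc76C larvae and 549 and 703 in GFP larvae (log2 change 0.98, limma adjusted p = 0.00923). The Cbs call ended without Gyc76C replicate 1 (log2 change 0.91) and with no mean trend in the prior variance (adjusted p = 0.054). Gclc, the catalytic subunit of the enzyme that limits glutathione synthesis, had 3534 and 3294 in Gyc76C larvae and 3272 and 2187 in GFP larvae (log2 change 0.35, adjusted p = 0.242), and was named after its values were seen. The median log2 fold change of the list was 0.50, against -0.16 over all tested probe sets. Without GFP replicate 1 the list had 2 higher and 1 lower.

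Export pumps and NADPH enzymes each had 1 member that rose in every alternative run. Of 4 tested pumps 1 rose and 1 fell, and of 2 tested NADPH genes 1 rose. Of all tested probe sets 11.3% were higher and 13.3% lower. MRP, which exports glutathione conjugates, had 3524 and 3752 in Gyc76C larvae and 1753 and 1647 in GFP larvae (log2 change 1.10, SE 0.13, adjusted p = 0.00235). Mdr50, a drug transporter, fell (log2 change -0.59, adjusted p = 0.0415), a call that ended with centred arrays (0.102), after quantile normalization (0.0582), without either Gyc76C array (0.0881 and 0.258 without replicates 1 and 2) and without GFP replicate 2 (0.0625), and 2 of the 4 tested pumps were not called. Men, malic enzyme, which makes NADPH for reducing disulfides, had 7208 and 6604 in Gyc76C larvae and 3295 and 2813 in GFP larvae (log2 change 1.18, adjusted p = 0.00263), and the other tested gene of that list, Idh, named outside the rule, had 0.44 (adjusted p = 0.108). Without GFP replicate 1 both NADPH genes were higher, and 2 pumps were higher and 2 lower.

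Enzymes of thiol redox balance and peroxide removal moved in both directions, with 4 of 11 tested genes higher and 5 lower, against 11.3% and 13.3% of all tested probe sets. Prx3, the mitochondrial peroxiredoxin, had 4057 and 4124 in Gyc76C larvae and 2106 and 2047 in GFP larvae (log2 change 0.98, adjusted p = 0.00299), and Prx6c, another peroxiredoxin gene, changed by 0.78 on the log2 scale (adjusted p = 0.0195). MsrA, which repairs oxidized methionine, had 791 and 976 in Gyc76C larvae and 2548 and 1513 in GFP larvae (log2 change -1.16, adjusted p = 0.0204). Cat, the catalase gene, had 4489 and 4246 in Gyc76C larvae and 7575 and 6910 in GFP larvae (log2 change -0.73, adjusted p = 0.010). The list counted 1 higher and 1 lower without Gyc76C replicate 1, 1 higher and 2 lower without Gyc76C replicate 2, 4 higher and 3 lower with centred arrays, and 1 higher and 0 lower without the variance trend. Without Gyc76C replicate 1 the calls of Prx6c (0.0828) and MsrA (0.0845) ended, and without Gyc76C replicate 2 those of Prx6c (0.0538) and Cat (0.0502).

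Of 4 measured regulators of GST transcription 1 was called, a share like the 24.6% of all tested probe sets. This was maf-S, the partner of CncC, with 1494 and 1666 in Gyc76C larvae and 2434 and 2445 in GFP larvae (lower, log2 change -0.63, adjusted p = 0.0166, and 0.166 and 0.0647 without Gyc76C replicates 1 and 2). The gene cnc, whose long isoform is CncC, had a log2 change of -0.22 (adjusted p = 0.247) and Keap1 -0.21 (adjusted p = 0.587), both named after their values were seen. By limma at an unadjusted p under 0.05, maf-S alone of the 4 passed.

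A list of 8 other genes held detoxification enzyme genes known to be inducible by xenobiotics and the receptor gene Hr96. Of these 8 genes 1 was higher and 4 were lower, against 11.3% and 13.3% of all tested probe sets. The median log2 fold change of the list was -0.95. Cyp6a2, a cytochrome P450, had 144 and 107 in Gyc76C larvae and 1241 and 1077 in GFP larvae (log2 change -3.22, SE 0.20, adjusted p = 0.000296). Cyp6g1, the P450 behind DDT resistance in field strains, had 1935 and 1470 in Gyc76C larvae and 5354 and 5808 in GFP larvae (log2 change -1.73, adjusted p = 0.00128), and Cyp6d5 had -1.37 (adjusted p = 0.00155). Jheh2, an epoxide hydrolase of juvenile hormone breakdown, had -0.84 (adjusted p = 0.00946, and 0.0547 without Gyc76C replicate 1). The gene that rose, Hr96, encodes a nuclear receptor that responds to xenobiotics and, named outside the rule, had a log2 change of 0.83 (adjusted p = 0.00829), with the call lost without either Gyc76C array (0.0667 and 0.0632 without replicates 1 and 2). Of the 5 tested relatives of the GSTs, such as the microsomal transferase gene Mgstl at -0.41 (adjusted p = 0.0849; named outside the rule), 0 passed the test by limma and 3 had an unadjusted p under 0.05, and the list counted 2 higher with centred arrays, 1 lower after quantile normalization, 1 higher without GFP replicate 1, and 1 higher and 1 lower without GFP replicate 2.

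Markers of tissues in a whole larva were counted beside the 24.6% of all tested probe sets called, and their part in the GST values was not tested. Of 4 measured fat body markers 2 fell, Fbp1 and Fbp2. Summed signals of the list were 88849 to 105332 in Gyc76C larvae and 132734 to 135658 in GFP larvae. Fbp1 had 10611 and 14729 in Gyc76C larvae and 34606 and 38681 in GFP larvae. The Fbp2 call (limma adjusted p = 0.0499) ended with centred arrays (0.171). Lsp2 and apolpp were not called. Both Gyc76C arrays lay below both GFP arrays for Lsp2 and above them for apolpp. Of 8 midgut markers 2 rose and 0 fell, against 11.3% higher and 13.3% lower of all tested probe sets. Those that rose were betaTry, 3.59-fold higher (limma adjusted p = 0.000977), and Mal-A1, 3.91-fold higher (limma adjusted p = 0.000603). Sums over the list were 145801 to 171989 in Gyc76C larvae and 145102 to 165721 in GFP larvae. They were led by the Jonah genes of the list, which were not called. Of 3 tested Malpighian tubule markers 1 rose, with sums over 4 measured genes of 1656 to 1861 in Gyc76C larvae and 1046 to 1052 in GFP larvae. The sums were led by the marker that rose, Oatp58Dc, with 1182 and 1163 in Gyc76C larvae and 399 and 460 in GFP larvae. The other tested tubule markers were not called. Of 7 blood cell markers 2 rose and 2 fell, with sums of 17956 to 18587 in Gyc76C larvae and 11643 to 15271 in GFP larvae. These sums were led by PPO1 and PPO2, the brightest of the list and those that rose. PPO2 had 9100 and 8490 in Gyc76C larvae and 6158 and 4347 in GFP larvae. The blood cell markers that fell were He and eater, with 693 and 654 in Gyc76C larvae and 1420 and 1254 in GFP larvae for He. All 6 salivary glue genes were called lower, with sums of 18153 to 21244 in Gyc76C larvae and 179054 to 192434 in GFP larvae. Sgs1, with 58.7 and 10.2 in Gyc76C larvae and 2253 and 743 in GFP larvae, passed the signal filter only through the GFP arrays. No marker was listed at 0. After quantile normalization 1 fat body marker was higher and 2 lower. With any single array left out 1 fat body marker fell. Of the blood cell markers 0 rose on leaving out either Gyc76C array and 1 on leaving out GFP replicate 2, and 1 fell on leaving out Gyc76C replicate 1.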

How the data were processed

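Affymetrix Drosophila arrays of whole larvae were analysed, 2 per genotype, grouped by the titles. The deposited numbers are linear intensity values, 1 per probe set, which the authors computed by MAS5 according to the submitters' processing notes (no version given). MAS5 assigns a signal to every probe set, and detection calls were not used here, so folds of dim probe sets carry large errors.

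Of 18952 probe sets, 183 controls were dropped. Signals were log2-transformed with no pseudocount. Probe sets with a mean signal at or above the 40th percentile (46.3) were kept, which left 11261. Genotypes were compared with limma 3.58.1 (R 4.3.3; lmFit, eBayes with a mean trend, 4.64 prior and 2 residual degrees of freedom), two-sided, with Benjamini-Hochberg adjustment over all of them. The script was tested on simulated data. Folds are ratios of geometric means.

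Members, lists and tests were chosen with earlier results of these data known. Every Gst probe set may be named. Of each other list, up to 4 called genes with the largest changes are named, and genes named outside this rule are said to be so. List genes that have no probe set with a single symbol were not analysed here. The 14 alternatives are median centring, quantile normalization, no filter, a filter at the 60th percentile, no variance trend, a robust variance, low signals raised to 46.3, log2(signal + 50), the replicate number as a block, the brightest probe set of each gene, and each array left out.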

Additional observations from a re-analysis of the deposited data

How the results depend on the processing

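The median log2 fold change of the tested Gst probe sets (-0.06) ranged from -0.22 to 0.08 when 1 array was left out. Called higher were 10, against 5 to 12 with 1 array left out and 5 with no mean trend in the prior variance, and called lower 6, against 4 to 8 and 3. Delta probe sets called higher were 5, against 1 to 5 with 1 array left out and 1 without the trend. Epsilon probe sets called lower were 0, against 0 to 2 with 1 array left out, 1 with low signals raised to the floor, 1 with log2(signal + 50) and 2 with the replicate block. Over all probe sets 2771 were called, 45.9% of them higher, against 62.7% with centred arrays, and 1241 without the trend, 1204 without Gyc76C replicate 1.

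The genotypes share replicate numbers, which the labels do not tie to a batch, and same-numbered deviations correlated at r = 0.04; with the replicate block 11 Gst probe sets were higher and 8 lower.

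Signs turned only for probe sets that were not called. With centred arrays the log2 fold change was 0.12 for GstD1, 0.044 for GstD9, 0.059 for GstE3, 0.14 for GstE5, 0.10 for GstE12 and 0.018 for GstT4. After quantile normalization it was 0.042 for GstD1, 0.050 for GstE5 and -0.034 for GstS1. With 1 array left out it ran from -0.15 to 0.083 for GstD1, from -0.31 to 0.085 for GstD9, from -0.40 to 0.20 for GstE3, from -0.084 to 0.048 for GstE5, from -0.22 to 0.11 for GstE12, from -0.39 to 0.0047 for GstE13 and from -0.44 to 0.16 for GstT4. Of 462 recomputed values of single probe sets, 402 kept direction and call, 26 lost the call, 15 gained it and 19 turned sign. Direction could not turn where only the filter, the variance model, the replicate block or the set of probe sets fitted was changed. The 402 also include GstD11, GstE4 and the dim GstE9 probe set, which had no test in the reported setting and were counted as not called. Without a filter, GstD11, GstE4 and the dim GstE9 probe set had adjusted p of 0.275, 0.713 and 0.426. No cause of these differences was tested. The 2 arrays per genotype and the unknown detection of dim probe sets limit what can be called.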
